A study of Neurospora crassa with 94 samples.

Results

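The 9 genes with locus tags NCU07144 to NCU07152 of the filamentous fungus Neurospora crassa lie near one end of chromosome V and are described here as a block, among 10397 genes measured. All rows with these tags that stood in both deposited RNA tables were taken. The block was selected on the read levels in wild type and set-7, because several of its genes were silent in the first and high in the second, so the values of those groups are given as a description. By the gene order of the RefSeq table for assembly NC12, NCU07144 is the second gene from the chromosome end and NCU07152 is the tenth, with no other gene between them. The table gives no name or function for any of the 9 genes, and no role is assigned to them here.

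Genes near chromosome ends of Neurospora crassa lie largely in domains marked by methylation of histone H3 at a lysine residue, set by Polycomb repressive complex 2 (PRC2), and genes in these domains are usually silent in growing mycelium. SET-7 is the catalytic subunit of that complex. ISW is an ATP-dependent chromatin remodeler of the ISWI family (Imitation Switch), which moves nucleosomes. ACF is an accessory subunit of such remodelers, and IAF-1 and IAF-2 are named as ISW accessory factors.

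The study compared wild type and mutants, per its title to ask whether ISWI is needed for repression in PRC2 target domains. RNA was sequenced from mycelial cultures grown in constant light, as 41 libraries in 3 library series, each called by the number its library labels begin with. Wild type (WT) and the single mutants iaf-1, iaf-2 and acf made up series 111, each as 3 libraries. In series 112 there were 3 libraries of each of WT, the single mutants acf and set-7, and a mutant labelled for acf, iaf-1 and iaf-2 together (acf iaf-1 iaf-2). The libraries of series 118, titled as batch 4, were 3 of WT, 3 of isw, 3 of acf iaf-1 iaf-2, 3 of acf iaf-2, 3 of acf iaf-1 and 2 of iaf-1 iaf-2. No group shares an added mutation or agent with its WT, as far as the labels say, and nothing in them states how many isolates a genotype stands for. Whether replicates were grown separately is not stated, and the p-values below therefore measure the spread between libraries, which may be technical.

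Depth ranged from 5332503 to 9021398 reads per library in series 111. It ranged from 5652592 to 22582163 in series 112 and from 11711997 to 21973657 in the recovered reads of series 118, so that 3 reads corresponded to between 0.133 and 0.563 CPM (reads scaled to the library total). The targeted gene was nearly absent in several mutants: NCU00412 had 0 reads in iaf-1 and NCU09388 had 2 reads in iaf-2, and isw fell to 2.12 TPM (a level per gene length) in the isw libraries against 33.0 TPM in WT. The acf gene went against its label, with 188 CPM in the acf libraries and 43.1 CPM in WT of series 111, and 74.3 against 30.1 CPM in series 112. The sources used here do not give the part of a gene that was deleted, and these libraries are called "labelled acf" below. The same holds for the double and multiple mutants with that label, whose acf means of 55.3 to 61.4 CPM in series 118 stood above the 34.0 CPM of WT; isw had 102 CPM. Reads of set-7 were present in the set-7 libraries at 4.42 CPM, against 7.29 CPM in WT. In series 111 the closest pair of libraries of each group differed little beyond sampling noise (chi-square per degree of freedom of 1.55 to 1.97, against 15.1 to 74.5 for the other pairs), and the labels do not say whether such a pair shares a culture. The pair of iaf-1 iaf-2 libraries of series 118 differed most among pairs of the same group, with a chi-square per degree of freedom of 130.5. All 3 mycelial markers were detected in every library.

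In wild type the block was nearly silent. Over the 9 WT libraries of the 3 series, NCU07145, NCU07146 and NCU07148 had no read, NCU07147 had 1, NCU07151 and NCU07152 had 2 each and NCU07150 had 4. NCU07149 was detected in all 9 WT libraries, with 107 reads in all and means of 1.18 to 1.68 TPM. NCU07144 was detected in 8 of the 9, with 49 reads in all. A gene without reads in WT can differ from it in 1 direction only, which bears on every comparison with WT below. In bulk RNA, fewer cells that express a gene and less RNA per cell cannot be told apart.

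**Figure D1:**
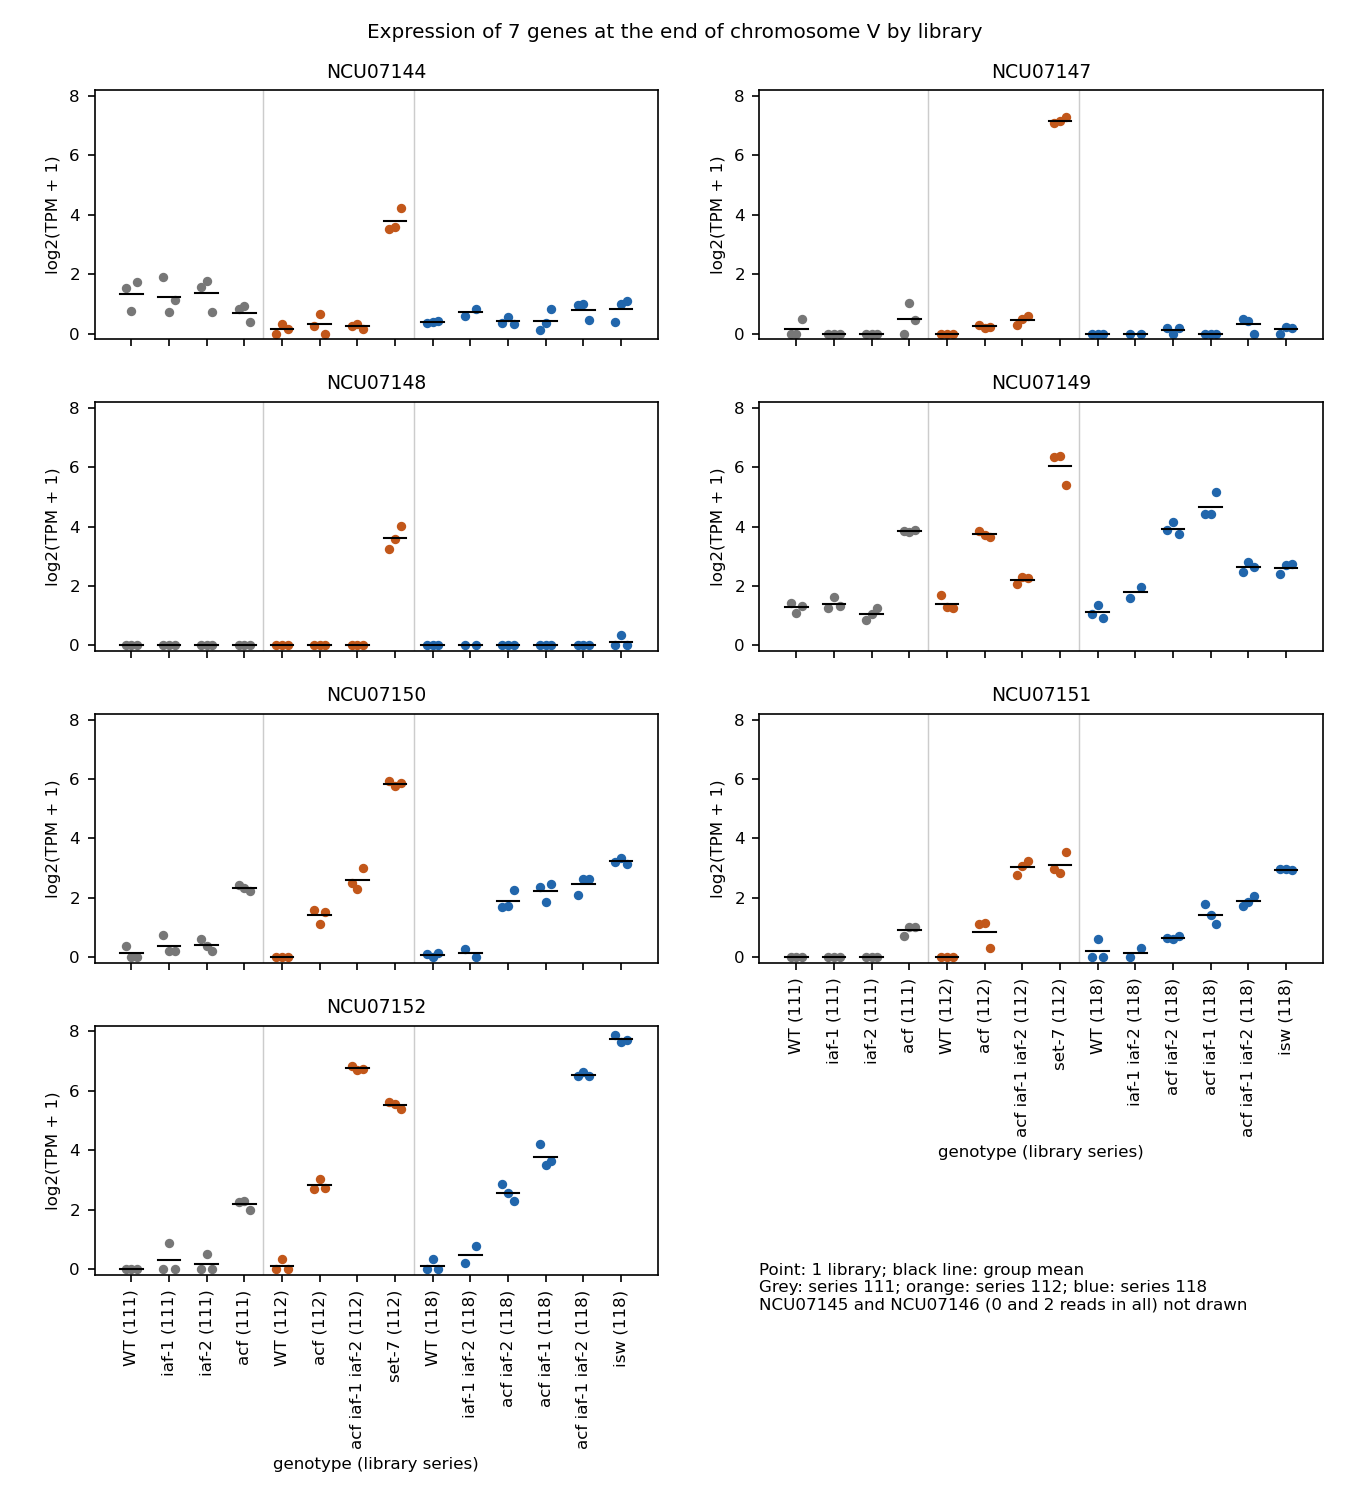
Level of 7 genes of the block in each of 41 libraries, as log2(TPM + 1) on the vertical axis, by genotype and library series on the horizontal axis; points are libraries and black lines group means. NCU07147 and NCU07148 stood high in set-7 and at or near 0 in the other groups, while NCU07149 to NCU07152 were also above WT in isw and in the libraries labelled acf, except for NCU07151 in acf iaf-2, which overlapped WT.

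In the set-7 libraries 7 of the 9 genes were expressed. NCU07147 had 135, 140 and 154 TPM in the 3 set-7 libraries and no read in WT of series 112. It was the highest gene of the block there, and its summed reads were at least 618-fold above a floor of 3 reads for the WT group. NCU07149 had 79.8, 82.1 and 41.4 TPM in set-7 against 2.22, 1.46 and 1.37 TPM in WT. By summed reads scaled to the library totals, as for all ratios below, it was 37.8 times as high (95% interval from counting 27.8 to 52.9). Set-7 replicate 3 was below the other set-7 libraries, which none of the other expressed genes showed to that extent. Intervals and floors cover counting error only.

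NCU07150 had 59.8, 53.4 and 56.9 TPM in set-7 and no read in WT of series 112, a ratio of at least 499. NCU07152 had 48.4, 46.6 and 41.3 TPM in set-7, and 1 read in the WT group gave a ratio of 403 (interval 72 to 1.59e+04). Both genes varied little among the set-7 libraries. NCU07144 had 10.5, 10.9 and 17.9 TPM in set-7, 110-fold above 4 reads in WT (interval 42.8 to 405). NCU07148 had 8.40, 10.9 and 15.3 TPM and NCU07151 had 6.81, 6.10 and 10.7 TPM, which gave ratios of at least 122 and 25.7. All 3 of these genes were highest in set-7 replicate 3, where NCU07149 was lowest.

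NCU07145 and NCU07146 had no read in set-7. NCU07145 had none in any of the 41 libraries, and NCU07146 had 1 read in each of 2 acf iaf-1 iaf-2 libraries. The block therefore held a pair of silent genes between expressed ones. Summed over the 9 genes, set-7 reached 220 ± 9.76 CPM (SD, n = 3) and WT of series 112 reached 1.62 ± 0.291 CPM. Of all genes tested in that comparison 14.1% were called at an adjusted p below 0.05, 7.4% as higher, but no test is given for the 9 genes, since this contrast chose them.

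NCU07147 and NCU07148 had few reads outside set-7. NCU07148 was detected in 4 of 41 libraries, the 3 set-7 libraries and 1 isw library with 4 reads (0.284 TPM). NCU07147 was detected in 18 libraries, but outside set-7 it had at most 3 reads in any of them, with a highest value of 1.06 TPM in a library labelled acf of series 111. NCU07144 behaved alike in that its mean of 13.1 ± 4.15 TPM in set-7 stood above every other group, but it was not silent elsewhere. Its 3 WT libraries of series 111 had 1.88, 0.697 and 2.30 TPM, above the 0, 0.25 and 0.107 TPM in WT of series 112. The other groups of series 112 and 118 had means of 0.119 to 0.806 TPM.

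NCU07149 to NCU07152, the inner stretch of the block, were also expressed in ISWI-related mutants. In the isw libraries NCU07152 had 233, 201 and 211 TPM, against 0, 0.259 and 0 TPM in WT of series 118. These were the highest values of the gene in the data, and those of set-7, measured in another series, lay between 41.3 and 48.4 TPM. NCU07150 had 8.33, 9.08 and 7.78 TPM in isw, and NCU07151 had 6.76, 6.77 and 6.59 TPM. NCU07149 had 4.29, 5.57 and 5.61 TPM in isw against 1.09, 1.56 and 0.882 TPM in WT.

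The isw and WT libraries did not overlap for any of these 4 genes. Separation of groups was counted for genes of the block alone, here and below, so no share over all genes stands beside it. By summed reads NCU07152 was 2680-fold above a single WT read (95% interval from counting 481 to 1.06e+05). NCU07150 was 153-fold (interval 42 to 1.27e+03) and NCU07151 was 40.6-fold (interval 10.9 to 341) above 2 WT reads each. No test against WT is given for these 3 genes in series 118: they were chosen for their silence in WT and passed the filter on low values only through the mutants, so they could not have been called lower. NCU07149 reached 1 TPM in 2 WT libraries of series 118 and was called higher in isw by 1.51 on the log2 scale (limma on log2(TPM + 1), Benjamini-Hochberg over all genes tested, adjusted p = 8.18e-06). Of all genes tested 48.3% were called in this comparison and 29% were higher. Fold changes on this scale understate the change of low genes. The other 5 genes of the block did not reach 1 TPM in 2 libraries and were not tested in series 118. NCU07144 had 37 reads in isw and 12 in WT, a ratio of 2.85 (interval 1.45 to 6), and the libraries of the groups overlapped.

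In the acf iaf-1 iaf-2 libraries of series 118 NCU07152 was again the highest of the 4 genes, while NCU07149 came next in place of NCU07150. NCU07152 had 88.8, 98.2 and 89.8 TPM there, NCU07150 had 3.31, 5.15 and 5.26 TPM and NCU07151 had 2.34, 2.66 and 3.21 TPM. NCU07149 had 4.52, 5.97 and 5.17 TPM. All 4 genes stood above WT in every library, again without a share over all genes. So did NCU07144, with 30 reads against 12 in WT, a ratio of 2.53 (interval 1.26 to 5.43). By summed reads NCU07152 was 1.12e+03-fold (interval 201 to 4.43e+04), NCU07150 82-fold (interval 22.3 to 683) and NCU07151 16.2-fold (interval 4.13 to 139) above WT. NCU07149 was called higher by 1.52 on the log2 scale (limma, adjusted p = 7.38e-06), where 51.1% of all genes tested were called and 29.8% were higher. In series 112 the same genotype had 114, 104 and 106 TPM of NCU07152 and 5.83, 7.36 and 8.53 TPM of NCU07151, with no test against the WT libraries used in the choice. There NCU07152 stood above the set-7 libraries, which was also not tested, while NCU07150 was lower, at 5.26 ± 1.64 TPM against 56.7 ± 3.24 TPM (SD, n = 3).

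Of the 4 tested genes 3 were higher in isw than in acf iaf-1 iaf-2 of series 118, a comparison in which 17.5% of all genes tested were called and 8.97% were higher. NCU07152 was higher by 1.21 on the log2 scale (limma, adjusted p = 0.000842), NCU07151 by 1.05 (adjusted p = 0.00328) and NCU07150 by 0.77 (adjusted p = 0.0183). For each of these genes every isw library was above every acf iaf-1 iaf-2 library, a separation not counted over all genes. NCU07149 had a difference of -0.01 (adjusted p = 0.974). With a pseudocount of 0.1 in place of 1 none of the 3 was called (limma, adjusted p = 0.0799 for NCU07152, 0.161 for NCU07151 and 0.149 for NCU07150), and the call of NCU07150 was also lost without acf iaf-1 iaf-2 replicate 1 (0.089), isw replicate 1 (0.0571) or isw replicate 2 (0.0665). An edgeR test on whole reads recovered from the TPM called 3 as higher.

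The sum over a list of 5 markers of sexual tissue moved with the 2 genotypes in which NCU07152 was highest. That sum may rest on few of the markers, whose own levels are not given here. Their summed level was 28690 to 35400 TPM in isw, 8612 to 18590 TPM in acf iaf-1 iaf-2 of series 118 and 14690 to 16680 TPM in that genotype of series 112, against 121.6 to 158.9 TPM in WT of series 118. In set-7 the sum was 84.4 to 109 TPM, and the acf iaf-1 libraries had 222.2 to 275.6 TPM. None of the 5 markers was at 0 in all libraries of any group. Their part in the result was not tested.

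The libraries labelled acf iaf-1 and acf iaf-2 showed another balance within the inner stretch. NCU07149 had 20.6, 20.3 and 34.9 TPM in acf iaf-1 and 13.8, 16.7 and 12.5 TPM in acf iaf-2, above all isw, acf iaf-1 iaf-2 and WT libraries of the series. NCU07152 had 17.5, 10.3 and 11.5 TPM in acf iaf-1 and 6.24, 4.86 and 3.94 TPM in acf iaf-2. NCU07149 was called higher than WT in acf iaf-1 by 3.56 (limma, adjusted p = 2.63e-10; 31.6% of all genes tested were called, 17.7% higher) and in acf iaf-2 by 2.82 on the log2 scale (limma, adjusted p = 6.87e-09; 24.7% called, 19.5% higher). The ratio of NCU07152 to WT by summed reads was 151 in acf iaf-1 (interval 26.7 to 5.99e+03) and 60.1 in acf iaf-2 (interval 10.5 to 2.41e+03). For NCU07150 the ratios were 61.4 (interval 16.7 to 512) and 48 (interval 13 to 401). NCU07151 had a ratio of 10.1 in acf iaf-1 (interval 2.49 to 88.2), while in acf iaf-2 it had 0.568, 0.528 and 0.641 TPM, 2 to 3 reads per library, and overlapped WT.

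**Figure D2:**
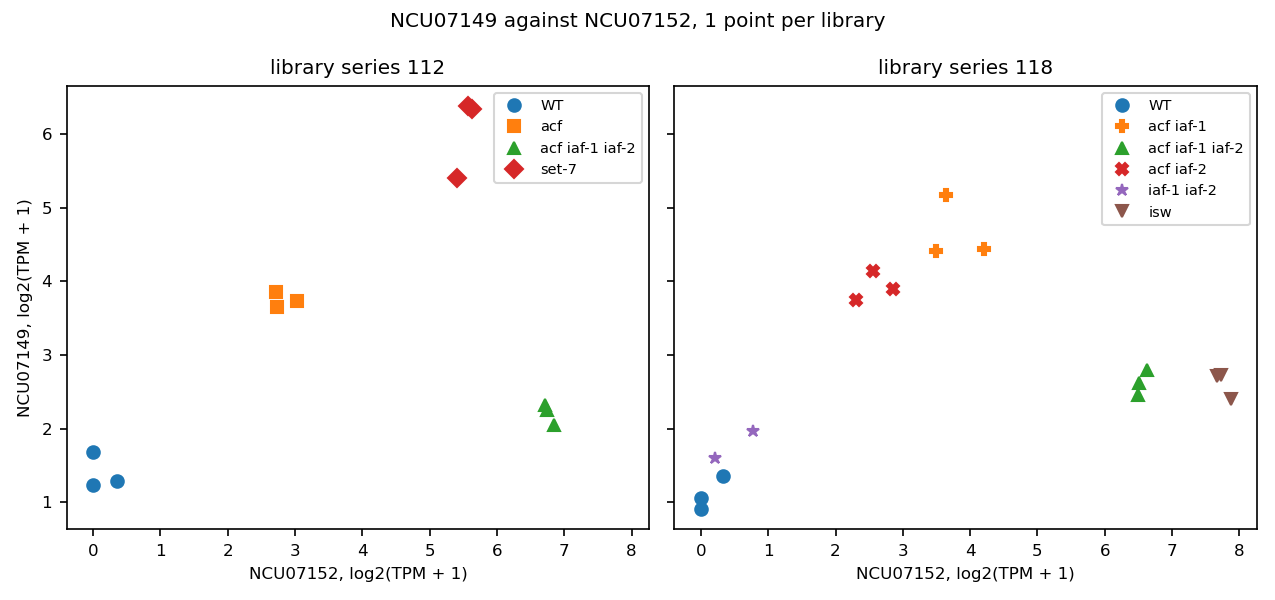
Level of NCU07149 (vertical axis) against NCU07152 (horizontal axis), both as log2(TPM + 1), with 1 point per library of series 112 (left) and 118 (right). The acf iaf-1 iaf-2 and isw libraries lie far right and low, the libraries labelled acf, acf iaf-1 and acf iaf-2 lie further left and higher, and set-7 lies high on both axes.

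NCU07149 and NCU07152 changed in opposite directions when acf iaf-1 iaf-2 was compared with acf iaf-1, acf iaf-2 or acf. Against iaf-1 iaf-2, which lacks the acf label, both genes stood higher in acf iaf-1 iaf-2, as given further below. Against acf iaf-1, NCU07152 was higher in acf iaf-1 iaf-2 by 2.76 (limma, adjusted p = 7.07e-09) and NCU07149 was lower by 2.04 on the log2 scale (-2.04, adjusted p = 5.9e-07), while NCU07150 and NCU07151 were not called (adjusted p = 0.395 and 0.0841). Of all genes tested 39.4% were called in that comparison, 24.5% as higher and 14.9% as lower.

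Against acf iaf-2, NCU07152 was higher by 3.97 (limma, adjusted p = 7.03e-11) and NCU07149 differed by -1.30 (adjusted p = 9.95e-05). Of all genes tested 34.6% were called in that comparison, 16.1% as higher and 18.4% as lower. NCU07151 had 2 to 3 reads per library in acf iaf-2. It passed the filter on low values only through groups in which it was higher, and no test of NCU07151 is given there. NCU07150 was higher by 0.57 with an adjusted p of 0.0433, a call lost with the edgeR test on recovered reads (adjusted p = 0.0514), with a pseudocount of 0.1 (0.189), with a fit to these groups alone (0.0931) and without acf iaf-1 iaf-2 replicate 2 (0.141) or 3 (0.135) or acf iaf-2 replicate 1 (0.154) or 2 (0.137). The libraries of these groups overlapped for NCU07150.

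Series 112 held the same contrast with acf alone, measured in its own libraries and by counts. The libraries labelled acf had 13.5, 12.3 and 11.6 TPM of NCU07149, against 3.14, 3.98 and 3.78 TPM in acf iaf-1 iaf-2, and the groups did not overlap. For NCU07152 the order was the other way, with 5.55, 7.16 and 5.67 TPM in acf and 104 to 114 TPM in acf iaf-1 iaf-2. NCU07150 had 2.02, 1.20 and 1.87 TPM in acf and 4.71, 3.96 and 7.10 TPM in acf iaf-1 iaf-2.

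By edgeR's quasi-likelihood test NCU07152 was 18.9-fold higher in acf iaf-1 iaf-2 than in acf (log2 fold change 4.24 ± 0.19, adjusted p = 1.97e-10). NCU07150 was higher by 1.70 on the log2 scale (adjusted p = 0.000148), and NCU07149 differed by -1.70 ± 0.27 (adjusted p = 0.000144). NCU07151 had 7, 6 and 1 reads in acf against 35, 26 and 24 in acf iaf-1 iaf-2. It passed the filter on low counts only through acf iaf-1 iaf-2 and set-7, so no test of it is given. Of all genes tested in this comparison 48.2% were called, 25% as higher and 23.2% as lower. NCU07147 and NCU07144 were not called (edgeR, adjusted p = 0.379 and 0.727), and NCU07148 had 0 reads in both groups. Each of these genes was tested only because of its reads in set-7, a group of the choice. With at most 2 reads of NCU07147 and 10 of NCU07144 per library in the compared groups, their missing calls are no sign of equal levels.

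**Figure D3:**
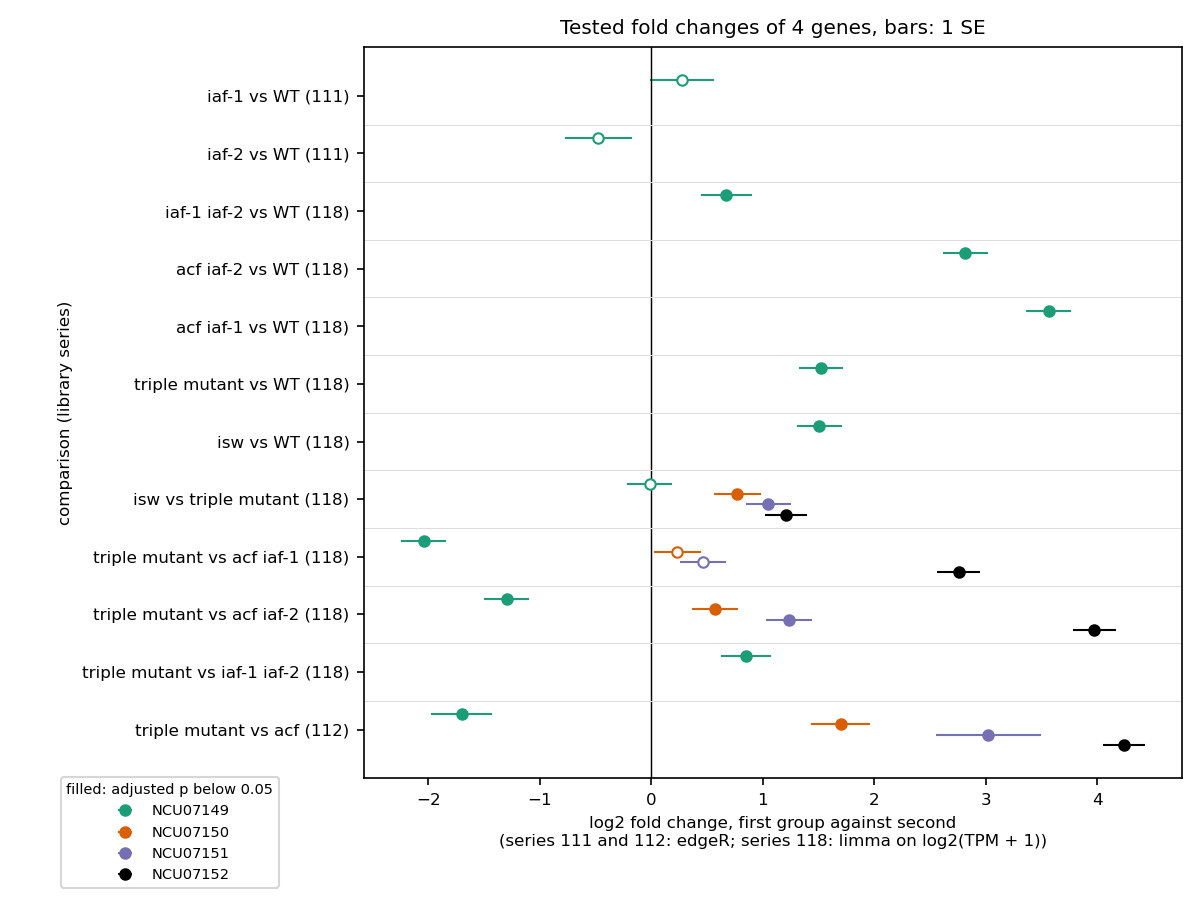
Log2 fold change of the first group against the second for NCU07149 to NCU07152 (horizontal axis) in 12 comparisons (vertical axis, library series in brackets; triple mutant is acf iaf-1 iaf-2); bars are 1 SE and filled points had an adjusted p below 0.05. Against WT and against iaf-1 iaf-2, where the other 3 genes were nearly silent, NCU07149 alone is drawn. NCU07149 lies left of 0 and NCU07152 right of 0 where acf iaf-1 iaf-2 was compared with acf iaf-1, acf iaf-2 or acf. Against acf and acf iaf-2, NCU07151 passed the filter on low values only through groups in which it was higher, and its points there are a description.

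The libraries labelled acf of series 111 repeated the high level of NCU07149 with 13.5, 13.1 and 13.8 TPM, against 1.72, 1.137 and 1.53 TPM in WT. NCU07150 had 4.36, 4.02 and 3.74 TPM there against 0.303, 0 and 0 TPM in WT. By summed reads NCU07149 was 8.44-fold higher (interval 5.61 to 13.2). NCU07150 was 33.7-fold higher (interval 8.97 to 284), a ratio that rests on 2 reads in WT replicate 1. Both genes passed the filter on low counts only through the libraries labelled acf, and no test of them against WT is given for these libraries. NCU07144 differed by -1.10 on the log2 scale and was not called (edgeR, adjusted p = 0.17), where 66% of all genes tested were called, 31.6% as higher. NCU07152 had 6, 8 and 6 reads in the libraries labelled acf and none in WT, and NCU07151 had 1, 2 and 2 reads against none. The sum over 5 markers of conidia moved with this result, at 903.5 to 934.2 TPM in acf and 89.0 to 216 TPM in WT. It may rest on few of the markers, and their part in the result was not tested. In series 112, where the libraries labelled acf had 788.3 to 1149 TPM of these markers and WT had 796.1 to 1540 TPM, NCU07149 had 12.5 ± 0.969 TPM in acf and 1.68 ± 0.469 TPM in WT.

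Summed as CPM, the block overlapped WT of series 111 (1.755 to 3.574) in iaf-1 (2.521 to 4.313) and iaf-2 (1.859 to 3.562). In iaf-1 iaf-2 it had 2.457 and 3.48 CPM, above the 1.181 to 1.856 CPM of WT of series 118. In iaf-1 NCU07149 had 1.37, 2.12 and 1.52 TPM and in iaf-2 it had 0.812, 1.08 and 1.39 TPM, overlapping WT in both. NCU07144, NCU07149 and NCU07150 were tested in these comparisons. None of them was called in iaf-1 or in iaf-2 by edgeR, none had an unadjusted p below 0.05 (lowest 0.219 in iaf-1 and 0.166 in iaf-2), and DESeq2 called 0 as well; of all genes tested 28.8% and 19.6% were called. NCU07149 and NCU07150 passed the filter on low counts only through the libraries labelled acf. Their missing calls are therefore no sign of an unchanged level. At 6 to 14 reads per library of NCU07149, 0 to 4 of NCU07150 and 0 to 2 of NCU07152, a small difference was not detectable at this depth. In iaf-1 iaf-2 NCU07149 had 2.03 and 2.92 TPM, above the 0.882 to 1.56 TPM of WT of series 118, and was called as higher by 0.67 ± 0.23 (limma, adjusted p = 0.0415; 21.5% called, 14% higher). That call was lost with a fit to these groups alone (adjusted p = 0.167) and without WT replicate 1 (0.0963), WT replicate 3 (0.124) or iaf-1 iaf-2 replicate 2 (0.26). NCU07152 had 0.151 and 0.706 TPM, from 4 reads in all.

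Between acf iaf-1 iaf-2 and iaf-1 iaf-2, genotypes that differ by the acf label, NCU07149 was higher in the former by 0.85 on the log2 scale (limma, adjusted p = 0.00662), in a comparison where 39.1% of all genes tested were called and 22.1% were higher. That call was lost without iaf-1 iaf-2 replicate 1 (adjusted p = 0.0688). NCU07152 and NCU07150 had 4 reads each and NCU07151 had 1 read in iaf-1 iaf-2, against 1107, 162 and 32 reads in acf iaf-1 iaf-2. These 3 genes passed the filter only through other groups, and no test is given for them.

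The CPM summed over the block fell in an order from set-7 through isw to WT, but in several groups a single gene held most of the sum. NCU07152 had 81.4% of the block's reads in isw, and 77.1% and 73.1% in acf iaf-1 iaf-2 of series 112 and 118. NCU07149 had 66.8% to 73.1% in the libraries labelled acf, acf iaf-1 and acf iaf-2. In set-7 the largest share was the 30% of NCU07147. Set-7 had 220 CPM, isw 82.3 ± 4.65 CPM, and acf iaf-1 iaf-2 45.3 ± 2.12 CPM in series 112 and 38.1 ± 2.92 CPM in series 118 (SD, n = 3 each). Acf iaf-1 followed with 29.3 ± 7.63 CPM, acf iaf-2 with 16.4 ± 1.28 CPM, and the libraries labelled acf with 15.6 ± 0.459 CPM in series 111 and 15.3 ± 1.23 CPM in series 112. The ranges of acf iaf-1 and acf iaf-1 iaf-2 of series 118 overlapped, as did those of acf iaf-2 and both sets labelled acf, and the remaining groups were at 1.43 to 3.16 CPM. Levels from different series were scaled separately and were not tested against each other.

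Across the 10 mutant groups other than set-7 the 4 inner genes differed in their pattern, described by Pearson's r of the difference from WT on the log2(TPM + 1) scale. Set-7 was left out, after the data had been seen, because it served in the choice of the block. The groups share their WT libraries within a series, and no p is given. NCU07152 had r = 0.955 with NCU07151 and 0.905 with NCU07150, and NCU07151 and NCU07150 had r = 0.877. NCU07149 had r = 0.543 with NCU07150, 0.249 with NCU07152 and 0.167 with NCU07151.

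Outside the block, 5 genes had the highest r with its mean over all 11 groups, among 8457 genes with at least 5 TPM in a group. They were NCU05097 on chromosome VI (r = 0.95), gh10-2 (NCU08189) on chromosome III (r = 0.929), NCU07218 on chromosome V (r = 0.856), NCU16614 (r = 0.843) and NCU07510 (r = 0.835), both on chromosome III. The mean is dominated by set-7, which served in the choice of the block, so a large difference in set-7 follows from how these 5 were found. Over the 10 other groups r was 0.848 for NCU05097, 0.835 for gh10-2, 0.421 for NCU07218, 0.641 for NCU16614 and 0.865 for NCU07510.

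**Figure D4:**
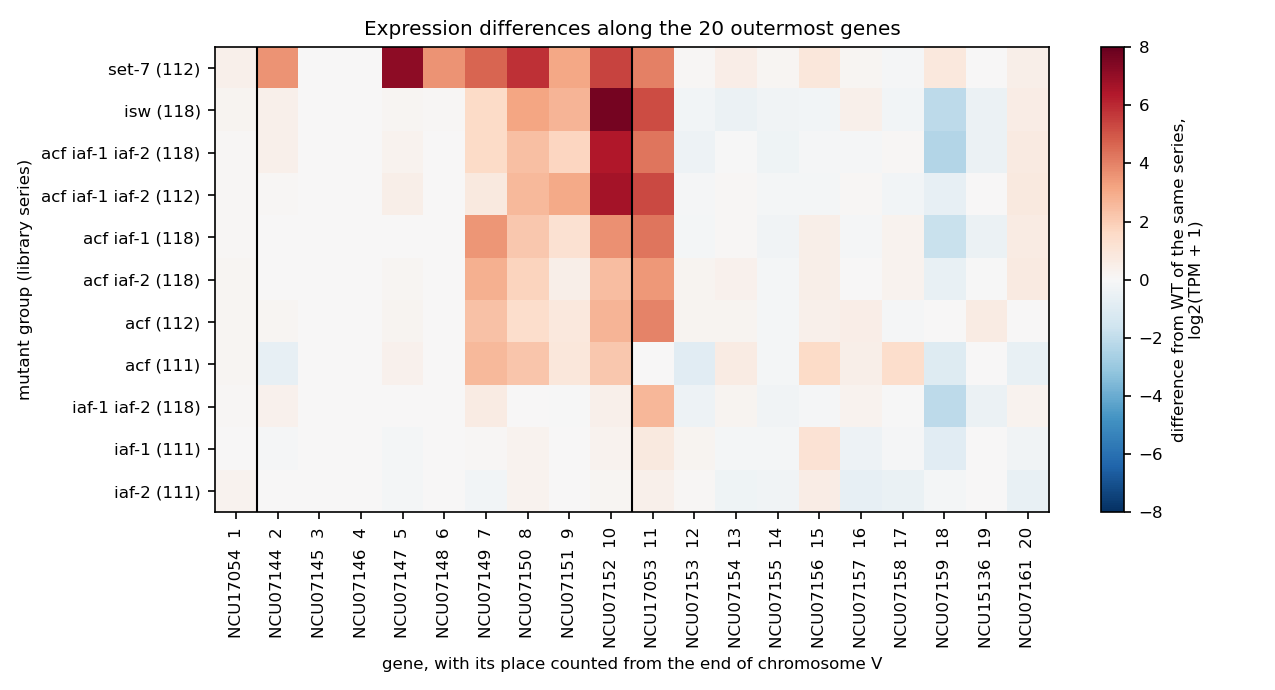
Difference from WT of the same series on the log2(TPM + 1) scale (colour) for the 20 outermost genes of the chromosome V end, from the end at the left, in each of 11 mutant groups; black lines bound the block of 9 genes. NCU07144, NCU07147 and NCU07148 differ from WT by 3.61 to 7.17 in set-7 and by -0.63 to 0.46 in the other groups. NCU07153 on the inner side lies between -0.92 and 0.24 in all groups.

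The genes just outside the block differed from each other. NCU17054, the outermost gene, had 0 to 4 reads in each of the 41 libraries and none in WT. NCU17053, next to NCU07152 on the inner side, had 0.269, 0.177 and 2.26 TPM in WT of series 112 and 29.3, 27.5 and 24.3 TPM in set-7, and was 32.6-fold higher there (edgeR, adjusted p = 1.52e-06). It had 111, 81.5 and 86.5 TPM in isw against 1.97, 1.67 and 1.07 TPM in WT, a difference of 5.20 on the log2 scale (limma, adjusted p = 5.85e-15). In iaf-1 iaf-2 it had 14.4 and 15.4 TPM, a difference of 2.65 (limma, adjusted p = 1.7e-09). Its level in WT of series 111, 13.5 to 15.9 TPM, was above that in WT of both other series, and the libraries labelled acf there had 14.3 to 15.3 TPM. In series 112 the libraries labelled acf had 26.92, 28.35 and 21.12 TPM, above WT of that series. In series 118 NCU17053 was higher than WT by 4.26 in acf iaf-1, 3.44 in acf iaf-2 and 4.31 in acf iaf-1 iaf-2 (limma, adjusted p = 1.51e-13, 3.03e-12 and 5.38e-14).

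NCU07153, the twelfth gene, had 232.8 to 258.9 TPM in WT of series 112 and 233.1 to 296.1 TPM in set-7, and the groups overlapped. Among the 21 neighbours taken from the 30 outermost genes, 19 were tested in set-7 and 5 were called higher and 0 lower, where 7.4% of all genes were higher; beside NCU17053 the largest were NCU07159 (2.24-fold) and NCU07156 (2.08-fold). In isw, where 29% of all genes tested were higher and 19.3% lower, 2 of 20 tested neighbours were higher and 5 lower. NCU07159 was lower there by 2.09 on the log2 scale (-2.09, limma, adjusted p = 0.00263). The 10 outermost genes of the other 13 chromosome ends had 47 of 108 tested called higher and 2 lower in set-7, with a median log2 fold change of 0.73, and 30 higher and 32 lower of 107 in isw, with a median near 0. The median over all genes tested was 0.003 in set-7 and 0.08 in isw.

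The 9 genes of a list of PRC2 and ISWI components, most of them targets of the mutations, were tested in every comparison. In set-7, where 7.4% of all genes tested were higher and 6.72% lower, none of the 9 was called higher and 2 were lower, set-7 itself (by -0.65 on the log2 scale, edgeR, adjusted p = 0.0423) and NCU06679, the gene of the PRC2 subunit NPF (-0.41, adjusted p = 0.0215). In isw, where 29% of all genes tested were higher and 19.3% lower, 7 of the 9 were called higher and 2 lower, 1 of them isw itself. The genes of the PRC2 subunits EED (NCU05300, by 1.34, limma, adjusted p = 1.5e-06) and SET-7 (NCU07496, by 0.76, adjusted p = 0.000884) were higher there, as was epr-1 (NCU07505), whose protein binds the PRC2 mark (by 0.79, adjusted p = 0.00375). That of the subunit SUZ12 (NCU05460) differed by -0.65 (limma, adjusted p = 0.00414). In acf iaf-1 iaf-2 of series 118, where 29.8% of all genes tested were higher and 21.3% lower, 5 were higher and 3 lower, of which iaf-1 and iaf-2 were themselves targeted, with EED higher by 1.57, SET-7 by 0.94 and SUZ12 lower (-0.80, limma, adjusted p = 0.000857). The part of these PRC2 gene levels in the levels of the block was not tested.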

How the data were processed

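The 9 genes were taken by locus tag, with earlier results of these data known when the genes, lists and tests were chosen. The authors deposited unscaled counts of reads (series 111 and 112) and TPM (series 118). Tools named in the submitters' processing notes are HISAT2 2.1.0, Subread 1.6.2 with featureCounts, SAMtools 1.9, Trim Galore 0.4.4, cutadapt 1.14 and FastQC. Their settings, the build, the annotation and the use of strand were not given in the sources used here; no coordinates are therefore printed, and reads of overlapping or near-identical genes are uncertain. ChIP-seq and MNase-seq samples (53 of 94) were not analysed here. Of 10397 identifiers, 1118 symbols were turned into locus tags, and 10363 matched the RefSeq table.

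Whole reads were recovered from the TPM for 10087 genes (100% within 0.01 of a whole number). They gave depths and CPM of series 118 and relative gene lengths, with which the deposited counts were turned into TPM for levels between genes. Counts were tested with edgeR 4.0.16 (quasi-likelihood test, TMM, filterByExpr, robust), and TPM with limma 3.58.1 (trend, robust) on log2(TPM + 1) over genes that reached 1 TPM in 2 or more libraries, in R 4.3.3. All groups of a series shared 1 fit, p-values were adjusted over all genes tested by Benjamini-Hochberg, and calls used an adjusted p below 0.05. Where a group had no read, its summed libraries were set to a floor of 3 reads, and exact 95% intervals were given for ratios. The tests were tried on simulated data. Alternatives were DESeq2 1.42.0, other scaling, pseudocount and filters, only the compared groups, closest pairs of series 111 summed, a replicate block and leaving out each library.

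All 9 genes are named, with neighbours among the 3 largest called changes each way at 5 TPM or more, and the 5 genes most alike in pattern.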

Additional observations from a re-analysis of the deposited data

How the results depend on the processing

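No direction of a call on the 9 genes reversed under any alternative run. Counts of the 9 genes called stayed within 1.5 times in 146 of 153 recomputations; those against WT include genes for which a call as higher was the open direction. Exceptions were acf against WT in series 111, with 4 without a filter (2 with it); isw against acf iaf-1 iaf-2, with 0 at a pseudocount of 0.1 (3 at 1); and iaf-1 iaf-2 against WT, with 2 at a pseudocount of 0.1, 0 when the fit held just those groups, and 0 to 1 when leaving out each library in turn (1 with all). The median over the 9 genes of the mean level in set-7, 13.8 CPM, was 11.3 to 14.4 CPM when leaving out each set-7 library. The cause was not tested. With the replicate block in the fit, the count called was the same as without it in every comparison. Several counts in this paragraph include genes for which no test is given above. They describe the processing and are no result about the block. The numbers were not taken to pair the libraries, since in no comparison did every same-numbered pair's deviations from the group means correlate above 0.1, and in none with 3 pairs did every library correlate best with its own number.

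Over all genes, the count called moved by more than 1.5 times for iaf-1 against WT (2299, and 476 with the closest pairs summed), iaf-2 against WT (1564; 4 with the pairs summed, 792 with those groups alone, 769 to 2759 leaving out a library), iaf-1 iaf-2 against WT (2007, and 994 with those groups alone), acf iaf-1 iaf-2 against iaf-1 iaf-2 (3651, and 2138) and isw against acf iaf-1 iaf-2 (1634, and 846 to 1544 leaving out a library), so the backgrounds of these comparisons are uncertain. Depth limits NCU07144, NCU07147, NCU07148 and NCU07151, which had few reads in most groups.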
